A study of Mus musculus with 6 samples.

Results

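The 10 genes described here are the antioxidant genes under the transcription factor NRF2 and the 2 main metallothionein genes. They were taken by name: Nfe2l2, Nqo1, Hmox1, Gclc, Gclm, Txnrd1, Srxn1, Slc7a11, Mt1 and Mt2. All 10 were found among the 17524 genes to which the 62498 listed transcripts belong, and all 10 passed the filter on low counts. The question of the series was whether transcription factor EB (TFEB), which switches on lysosomal and autophagic genes, restrains the activation of fibroblasts in the infarcted heart. Of 6 mouse heart libraries, 3 are labelled TFEB overexpression (numbers 34, 41 and 43) and 3 are labelled WT and serve as control (35, 36 and 37). The line is described as R26-LSL-TFEB [+/+]; Acta2-cre, in which Cre recombinase, made where the smooth muscle actin gene Acta2 is active, switches on a TFEB cassette at the Rosa26 locus. Mice of both groups had the left anterior descending coronary artery tied off. The labels read here state neither the age of the mice nor the time after ligation, nor whether the WT mice carried Cre or the cassette. They also do not tie each library to its own animal, and p-values therefore reflect no more than the scatter of these samples.

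NRF2, the protein of Nfe2l2, is held in the cytoplasm by KEAP1, which hands it to a CUL3 ubiquitin ligase for breakdown. Oxidants and electrophiles modify KEAP1, and NRF2 then enters the nucleus, pairs with a small MAF protein and binds antioxidant response elements. Its targets make glutathione, recycle thioredoxin and peroxiredoxin, reduce quinones and break down haem. Metallothioneins are small cysteine-rich proteins that bind zinc and copper; the zinc-sensing factor MTF1 induces them through metal response elements, and glucocorticoids induce them too. In the infarcted heart, oxidants come from reperfused or hypoxic muscle and from the NADPH oxidase of invading phagocytes.

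The motifs named above were searched in the RefSeq promoter windows of build GRCm38.p6, which run from 250 bases before to 50 after an annotated start. Windows were present for 8 of the 10 genes, Hmox1 and Gclc having none in the table. The antioxidant response element core was searched on both strands as TGACNNNGC and in no other form, and 12.4% of all 32851 windows held it. It was found in the windows of Nfe2l2, Gclm, Srxn1 and Mt2 and in 1 of the 3 windows of Txnrd1, and its letters were not in those of Nqo1, Slc7a11 and Mt1. The window of Slc7a11 (chr3:50443564-50443863, minus strand) lies inside the gene, annotated from 50364936 to 50499087. Which listed transcript starts there was not resolved, so the main transcript may start elsewhere. The stretches around the core are shown for the 4 genes of the NRF2 group, read along the gene's strand, with the core in capitals. In Gclm, Srxn1 and Txnrd1 it lies on the opposite strand, so the capitals there are the reverse complement. The core in Srxn1 lies after the start, at bases 29 to 37.
Nfe2l2 (chr2:75704889-75704909, minus strand): cccaccTGACTCCGCcatgcc
Gclm (chr3:122245417-122245437, plus strand): ccgggcGCACCGTCAactctc
Srxn1 (chr2:152105546-152105566, plus strand): tgggcaGCTAGGTCAgagtga
Txnrd1 (chr10:82859108-82859128, plus strand): atttttGCTTTGTCAttctga

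The metal response element was searched as TGCACNC and TGCGCNC on both strands, and matches did not overlap each other in the windows shown. Of all windows 25.7% held at least 1 match, 7.11% at least 2 and 0.518% at least 4. The window of Mt1 held 3 matches and that of Mt2 held 4, while Gclm held 3 and Srxn1 held 1; 1 of those in Gclm overlapped its antioxidant response element core. Mt1 and Mt2 lie on the plus strand of chromosome 8 with 5315 bases between them. Both windows are shown whole because the neighbours are paralogues that differed in how they varied between libraries, described below; capitals mark the metal response elements, as the reverse complement where the match is on the opposite strand.
Mt1 (chr8:94178839-94179138, plus strand): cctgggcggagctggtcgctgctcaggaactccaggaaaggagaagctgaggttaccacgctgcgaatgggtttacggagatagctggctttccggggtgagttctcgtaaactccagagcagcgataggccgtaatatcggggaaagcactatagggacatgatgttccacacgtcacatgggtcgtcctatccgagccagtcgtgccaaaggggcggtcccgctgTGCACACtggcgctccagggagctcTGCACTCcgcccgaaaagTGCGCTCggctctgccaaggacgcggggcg
Mt2 (chr8:94172368-94172667, plus strand): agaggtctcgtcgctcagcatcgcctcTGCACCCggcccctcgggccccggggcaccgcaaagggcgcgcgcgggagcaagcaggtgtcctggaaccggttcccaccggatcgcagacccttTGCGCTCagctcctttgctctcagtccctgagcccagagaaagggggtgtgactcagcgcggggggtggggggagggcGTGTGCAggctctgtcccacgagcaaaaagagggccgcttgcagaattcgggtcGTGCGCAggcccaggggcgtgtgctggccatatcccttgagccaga
The E-box CACGTG, the core of the element that TFEB binds, is in 7.15% of all windows, and its letters were in none of the windows of these 8 genes. A match is a description of the letters and not a shown binding site, and no match says only that the letters are not in this window.

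The libraries were dominated by heart muscle, although the labels also describe primary fibroblasts. Myh6, the main myosin heavy chain of the adult mouse heart, averaged 35791 ± 13032 CPM in TFEB overexpression and 36973 ± 7395 CPM in control (SD, n = 3 each; CPM is a TMM-scaled count relative to library size). Tfeb stood at 45.4, 45.3 and 39.4 CPM in TFEB 34, 41 and 43 and at 34.4, 33.8 and 41.4 CPM in control 35, 36 and 37, an overlapping pair of groups. Acta2, whose activity drives Cre, stood at 214, 291 and 174 CPM in TFEB 34, 41 and 43 and at 106, 100.3 and 137 CPM in control 35, 36 and 37, with no overlap (log2 fold change 0.98, SE 0.22, edgeR unadjusted p = 0.00394, adjusted p = 1.00). Matrix genes differed widely between libraries of a group: the 12 markers of matrix and myofibroblasts summed to 2212 to 23959 CPM in TFEB overexpression and 2955 to 14618 CPM in control. In such bulk samples, fewer cells of a type and less RNA per cell cannot be told apart.

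No member was called higher or lower in TFEB overexpression. By edgeR 0 of the 10 genes passed after adjustment (adjusted p = 1.00 for each), against a background of 0.0% of the 13565 genes tested. At an unadjusted p under 0.05 the count was 0 of 10, against 1.21% of all genes tested. DESeq2 called 0 of the 10 as well, where its background was 0.00738%, and limma-voom called 0. Of the members, 5 stood higher in TFEB overexpression and 5 lower, with a median log2 fold change of 0.03, and over all genes tested 51.0% had a higher value with a median of 0.00. The intervals say how large a change these libraries leave possible: they were narrow for Nfe2l2 and Txnrd1 and wide for Hmox1 and Mt2.

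**Figure D1:**
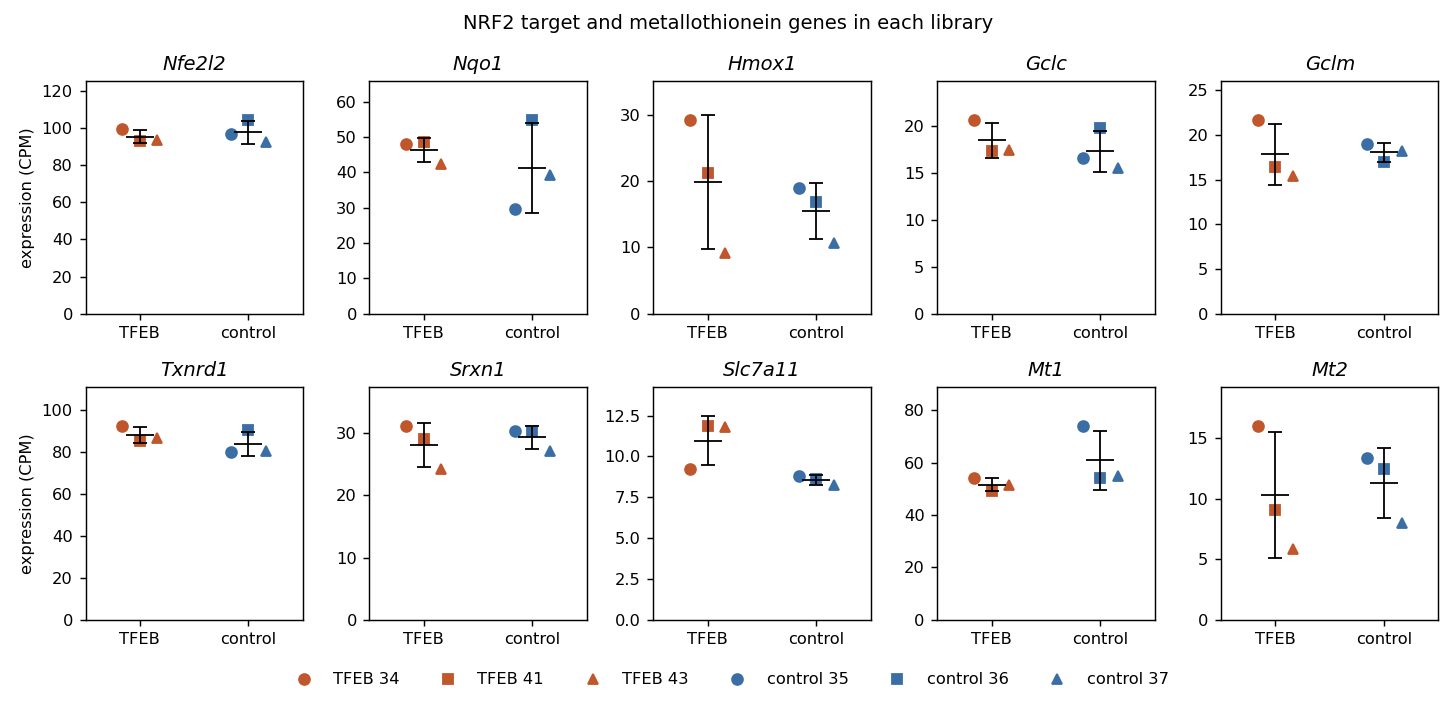
Expression of the 10 genes in CPM (vertical axes, each from 0) in the TFEB overexpression and control libraries; points are libraries, black bars the mean with its SD (n = 3 each). The groups overlap in every panel except that of Slc7a11.

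**Figure D2:**
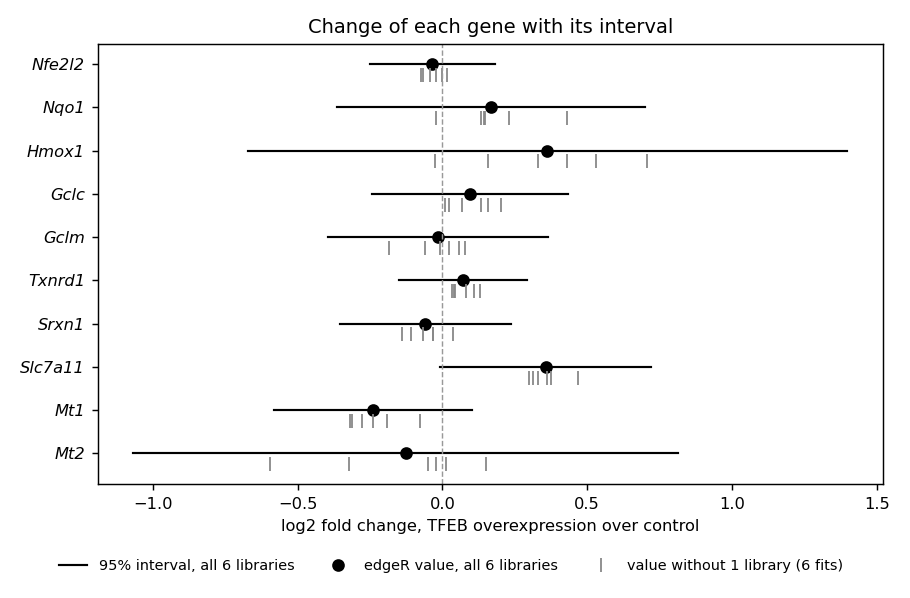
Log2 fold change of each gene, TFEB overexpression over control (horizontal axis), with the edgeR value as a point, its 95% interval as a line and the 6 values without 1 library each as grey ticks. Every interval includes 0, and those of Hmox1 and Mt2 are the widest of the 10.

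Nfe2l2, the gene of NRF2 itself, was nearly level. It stood at 99.5, 93.0 and 93.6 CPM in TFEB 34, 41 and 43 and at 96.6, 104 and 92.2 CPM in control 35, 36 and 37. The highest library was 1.13 times the lowest, and the groups overlapped. Its fold change was -0.03 on the log2 scale (SE 0.09), and the interval of the ratio ran from 0.840 to 1.13. Of the 11132 genes that averaged 5 CPM or more, 6.05% had a smaller SD of log2 CPM over the 6 libraries. This share does not allow for the number of counts of a gene, on which the SD also depends. NRF2 is set largely by the stability of its protein, which RNA counts do not measure.

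The genes that control NRF2 were also near 0. Of 10 such genes, 3 had a higher and 7 a lower value in TFEB overexpression, 0 passed, and the median log2 fold change was -0.02. Keap1, the gene of the repressor, stood at -0.06 (SE 0.11), Cul3 at -0.03 (SE 0.15), and Bach1, whose protein competes with NRF2 for the same elements, at -0.02 (SE 0.10). Sqstm1, which encodes p62, a KEAP1-binding autophagy receptor, stood at -0.01 (SE 0.16). Among the small MAF partners, Maff stood at 0.31 (SE 0.45) and Mafk at 0.14 (SE 0.32). The ligase adaptor gene Btrc stood at -0.08 (SE 0.10).

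The subunits of glutamate-cysteine ligase did not differ beyond the spread between libraries. Gclc, the catalytic subunit of the enzyme that makes the first bond of glutathione, stood at 20.6, 17.3 and 17.4 CPM in TFEB 34, 41 and 43, against 16.6, 19.7 and 15.5 CPM in control 35, 36 and 37. Its log2 fold change was 0.10 (SE 0.14), with a ratio interval from 0.846 to 1.35. Gclm, the modifier subunit of the same enzyme, stood at 21.7, 16.4 and 15.4 CPM in TFEB 34, 41 and 43, against 19.0, 16.9 and 18.2 CPM in control 35, 36 and 37. TFEB 34 was the highest library for both subunits, and TFEB 43 was the lowest for Gclm. For Gclm the log2 fold change was -0.02 (SE 0.16), with a ratio interval from 0.761 to 1.29.

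Slc7a11 was the only member whose groups did not overlap, and it did not pass the test. The gene encodes the transporter that brings in cystine for glutathione, and ATF4 as well as NRF2 is known to induce it. It stood at 9.23, 11.9 and 11.8 CPM in TFEB 34, 41 and 43, against 8.79, 8.64 and 8.25 CPM in control 35, 36 and 37, so every TFEB library lay above every control, TFEB 34 by a small margin. The means were 10.97 ± 1.51 and 8.56 ± 0.281 CPM (SD, n = 3 each, TFEB overexpression before control). On the log2 scale the difference was 0.36 (SE 0.15), which is a ratio of 1.28 with an interval from 0.994 to 1.65 (edgeR unadjusted p = 0.0546, adjusted p = 1.00). Groups that do not overlap with the higher values in TFEB overexpression were found in 2.24% of all genes tested, and 304 genes did so. Without TFEB 34 the log2 fold change of Slc7a11 was 0.47 (edgeR unadjusted p = 0.0159, adjusted p = 0.9998). The edgeR unadjusted p was also under 0.05 with upper-quartile factors (0.0491). It was 0.0481 and 0.0418 with the cardiomyocyte or the matrix and myofibroblast level as a covariate, and above 0.05 in the other alternatives. Counts were low, at 106 to 162 per library, and by length this was the scarcest of the 10 genes. Its partner subunit Slc3a2 stood at 0.01 (SE 0.13). Of 15 genes of the ATF4 response, 7 had a higher and 8 a lower value, 0 passed, and the median was -0.01; Atf4 itself stood at 0.15 (SE 0.12), Aldh1l2 at -0.60 (SE 0.44), Psat1 at -0.34 (SE 0.25) and the amino acid transporter gene Slc7a5 at 0.30 (SE 0.32).

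Among the other glutathione genes, 7 of 16 tested had a higher and 9 a lower value, with a median log2 fold change of -0.06, and 0 passed. Gss, which finishes glutathione, stood at 16.03, 16.04 and 17.0 CPM in TFEB 34, 41 and 43 and at 13.1, 15.8 and 14.3 CPM in control 35, 36 and 37 (log2 fold change 0.18, SE 0.12), so its TFEB libraries lay above the controls, as did those of Slc7a11. Mgst1, a membrane-bound glutathione transferase, stood at 28.3, 35.95 and 40.0 CPM in TFEB 34, 41 and 43 and at 54.4, 49.2 and 44.9 CPM in control 35, 36 and 37. Its groups did not overlap, as was true of 2.51% of genes in the lower direction. Mgst1 had a log2 fold change of -0.51 (SE 0.15, edgeR unadjusted p = 0.0132, adjusted p = 1.00). The glutathione reductase gene Gsr stood at 0.12 (SE 0.10). Gpx3, a secreted peroxidase, ran from 264 to 860 CPM in TFEB overexpression and from 324 to 1680 CPM in control (log2 fold change -0.79, SE 0.70).

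Txnrd1, the cytosolic thioredoxin reductase, was nearly as steady as Nfe2l2. It stood at 92.4, 85.1 and 86.6 CPM in TFEB 34, 41 and 43 and at 80.2, 90.6 and 80.6 CPM in control 35, 36 and 37, with 1.15 times between the highest and the lowest library. Its log2 fold change was 0.07 (SE 0.09), and the ratio interval ran from 0.901 to 1.22. Of its 4 listed transcripts, NM_001042513 held 78.1% to 87.2% of the gene's TPM in every library and NM_015762 held 9.99% to 20.5%. Srxn1, the sulfiredoxin that repairs over-oxidised peroxiredoxin, stood at 31.1, 29.0 and 24.1 CPM in TFEB 34, 41 and 43, against 30.3, 30.3 and 27.1 CPM in control 35, 36 and 37. The TFEB values enclosed all the control values. Srxn1 had a log2 fold change of -0.06 (SE 0.12), with a ratio interval from 0.782 to 1.18. Of 14 other thioredoxin and peroxiredoxin genes, 8 had a higher and 6 a lower value, 0 passed, and the median was 0.02. The thioredoxin gene Txn1 and the peroxiredoxin gene Prdx1 both stood at 0.03 (SE 0.09 and 0.11), while Txnrd3 stood at 0.17 (SE 0.17), Txnrd2 at 0.12 (SE 0.16), Prdx4 at 0.19 (SE 0.24) and the sestrin gene Sesn1 at -0.08 (SE 0.14).

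Nqo1, the quinone reductase often used as a readout of NRF2, spread more among controls than between the groups. It stood at 48.0, 48.7 and 42.4 CPM in TFEB 34, 41 and 43, against 29.7, 54.9 and 39.2 CPM in control 35, 36 and 37. Both the highest and the lowest library were controls. The log2 fold change was 0.17 (SE 0.22), with a ratio interval from 0.778 to 1.62. Without control 36 it was 0.43 (edgeR unadjusted p = 0.0383, adjusted p = 1.00), and without control 35 it was -0.02. The summed level of 8 adipocyte markers was 15.4 to 21.3 CPM in TFEB overexpression, against 239 CPM in control 36, the highest library, and 28.6 and 58.2 CPM in the other controls. Of those markers 5 were tested, all 5 with a lower value in TFEB overexpression, and Adipoq, Cidec, Lep, Ucp1 and Retn were at 0 in at least 1 library. With the adipocyte level as a covariate the log2 fold change of Nqo1 was 0.45 (edgeR unadjusted p = 0.271, adjusted p = 1.00). That level, a centred mean log2 CPM, was -3.04, -0.56 and -0.69 in TFEB 34, 41 and 43. It was 1.24, 2.97 and 0.09 in control 35, 36 and 37, without overlap, so the fit cannot separate it well from the group. Control 35 had the lowest Nqo1, and its adipocyte sum was 58.2 CPM. The part of adipocytes was not tested.

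Among 25 tested genes of a wider list of NRF2 targets, 13 had a higher and 12 a lower value, 0 passed, and the median log2 fold change was 0.02. Aox1, an aldehyde oxidase, stood at 35.8, 32.0 and 40.0 CPM in TFEB 34, 41 and 43 and at 49.6, 39.2 and 49.2 CPM in control 35, 36 and 37 (log2 fold change -0.36, SE 0.14, edgeR unadjusted p = 0.0366, adjusted p = 1.00). The glutathione transferase genes Gsta3 and Gsta4 stood at -0.42 (SE 0.28) and -0.29 (SE 0.25), and Taldo1, an enzyme of the pentose phosphate pathway, at 0.11 (SE 0.09). In a list of 7 genes that remove superoxide and peroxide, 3 had a higher and 4 a lower value (median -0.04, 0 passed), with the superoxide dismutase genes Sod1 at -0.06 (SE 0.18) and Sod3 at 0.41 (SE 0.37) and the catalase gene Cat at -0.09 (SE 0.18).

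**Figure D3:**
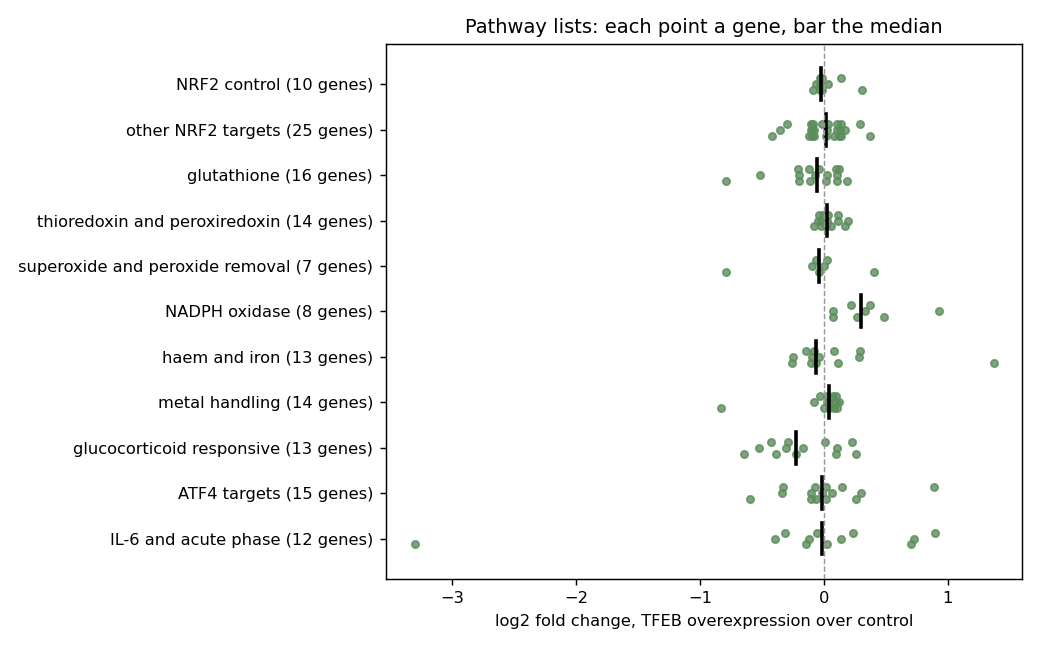
Log2 fold change, TFEB overexpression over control (horizontal axis), of every tested gene in 11 pathway lists; each point is a gene and the black bar the median. Medians lie between -0.07 and 0.04 except for the NADPH oxidase list at 0.30 (-0.21 without TFEB 34) and the glucocorticoid responsive list at -0.22, and no gene passed the test.

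Hmox1 had the largest SD over the 6 libraries of the 10 genes; within controls alone Nqo1 spread more, at 1.85 times between highest and lowest against 1.77 times for Hmox1. It encodes haem oxygenase-1, which breaks down haem and is made strongly by macrophages that clear red cells. It stood at 29.2, 21.2 and 9.09 CPM in TFEB 34, 41 and 43, against 18.9, 16.8 and 10.7 CPM in control 35, 36 and 37. The highest and the lowest value of all 6 libraries were both TFEB libraries, 3.21 times apart, and the groups overlapped. The log2 fold change was 0.36 (SE 0.43), with a ratio interval from 0.627 to 2.64 that excludes neither a doubling nor a moderate fall. Without TFEB 34 the value was -0.03, and without TFEB 43 it was 0.71 (edgeR unadjusted p = 0.0440, adjusted p = 0.792).

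Sums of macrophage and matrix markers shared their highest and lowest libraries with Hmox1, but not the order in between. The 12 macrophage markers summed to 1488, 944 and 553 CPM in TFEB 34, 41 and 43 and to 914, 1080 and 631 CPM in control 35, 36 and 37; 10 of 12 had a higher value in TFEB overexpression and none was at 0. The macrophage markers with a lower value were Cd163 (log2 fold change -0.70, SE 0.25, edgeR unadjusted p = 0.0317) and Mrc1 (-0.13, SE 0.12). The matrix and myofibroblast markers, of which 12 of 12 had a higher value and none was at 0, were highest in TFEB 34 and lowest in TFEB 43, as Hmox1 was. In control 36 both sums lay above those of control 35 and TFEB 41, while Hmox1 was lower there than in either. The direction of both lists rested on TFEB 34: without it the median log2 fold change was -0.10 for macrophage markers, against 0.27 with all libraries, and -0.27 for matrix and myofibroblast markers, against 0.63. Without control 37 these medians were 0.09 and 0.20. With the level of the matrix and myofibroblast list as a covariate, the log2 fold change of Hmox1 was 0.15 (edgeR unadjusted p = 0.386, adjusted p = 1.00). With the adipocyte level instead, which did not overlap between the groups, it was 0.0093, and with the cardiomyocyte level 0.35. The part of macrophages was not tested. The 8 genes of the NADPH oxidase list, most of them phagocyte genes, all stood higher in TFEB overexpression (median 0.30) and 0 passed; the median was -0.21 without TFEB 34 and 0.07 without control 37. Cyba, a membrane subunit, stood at 0.37 (SE 0.17), Cybb, the catalytic subunit of phagocytes, at 0.27 (SE 0.44), Ncf4 at 0.48 (SE 0.63), the small GTPase gene Rac1 at 0.07 (SE 0.10) and Nox4 at 0.93 (SE 0.95).

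Of 13 tested genes of haem and iron handling, 5 had a higher and 8 a lower value (median -0.07), and 0 passed. Tfrc, the transferrin receptor that takes up iron, stood at 73.4, 167 and 285 CPM in TFEB 34, 41 and 43 and at 45.4, 80.7 and 77.3 CPM in control 35, 36 and 37. TFEB 34 lay within the control range and the other TFEB libraries above it. Tfrc had a log2 fold change of 1.37 (SE 0.49, edgeR unadjusted p = 0.0299, adjusted p = 1.00). The haem synthesis gene Alas1 stood at 0.29 (SE 0.27), the copper-bound ferroxidase gene Cp at -0.25 (SE 0.21) and the iron transporter gene Slc11a2 at 0.11 (SE 0.11). The ferritin genes, both NRF2 targets, ran differently over the libraries: Ftl1 was highest in TFEB 34 (683 CPM) and lowest in TFEB 43 (235 CPM), and Fth1 was highest in TFEB 43 (1393 CPM) and lowest in TFEB 34 (1003 CPM).

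The 2 metallothionein genes had lower mean values in TFEB overexpression, and neither passed. Mt1 stood at 54.1, 49.2 and 51.6 CPM in TFEB 34, 41 and 43, against 74.0, 54.1 and 54.8 CPM in control 35, 36 and 37. Control 35 stood apart above the other 5 libraries, which lay between 49.2 and 54.8 CPM. The log2 fold change of Mt1 was -0.24 (SE 0.14), with a ratio interval from 0.668 to 1.07, and it was -0.08 without control 35. Mt2 stood at 16.03, 9.08 and 5.87 CPM in TFEB 34, 41 and 43, against 13.4, 12.5 and 8.01 CPM in control 35, 36 and 37. Its TFEB libraries enclosed the control libraries on both sides. For Mt2 the log2 fold change was -0.13 (SE 0.39), with a ratio interval from 0.477 to 1.76; it was 0.15 without TFEB 43, 0.01 without control 35 and -0.60 without TFEB 34. Counts of Mt2 ran from 71 to 252 per library, the lowest count of any member.

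The 2 paralogues did not keep 1 ratio. Per transcript length, the TPM of Mt1 was 3.53, 5.60 and 9.19 times that of Mt2 in TFEB 34, 41 and 43, and 5.65, 4.52 and 7.03 times in control 35, 36 and 37. The ratio was lowest in TFEB 34 and highest in TFEB 43, and its means of 6.11 ± 2.86 in TFEB overexpression and 5.73 ± 1.26 in control (SD, n = 3 each) lay closer than the spread of either group. The labels do not say how reads of these similar, short transcripts were divided between the genes. Deposited Mt2 counts were whole numbers, at 252, 124 and 71 in TFEB 34, 41 and 43 and 200, 178 and 103 in control 35, 36 and 37. Fractions appeared only between the 2 listed Mt1 transcripts, whose sums were whole. The part of shared reads in the ratio was not tested. Mt2 shared its highest and lowest libraries, TFEB 34 and TFEB 43, with Hmox1 and with the matrix and myofibroblast markers. With the level of those markers as a covariate the log2 fold change of Mt2 was -0.28 (edgeR unadjusted p = 0.188, adjusted p = 1.00).

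Regulators of the metallothioneins gave the following. Of 14 tested genes of metal handling, 11 had a higher and 3 a lower value (median 0.04, and -0.03 without TFEB 34), and 0 passed. Mtf1, the zinc-sensing factor, stood at -0.08 (SE 0.10), its target Slc30a1, a zinc exporter, at 0.10 (SE 0.10), the zinc transporter genes Slc30a5 and Slc39a1 at 0.10 (SE 0.11) and 0.08 (SE 0.10), and Slc39a8 at -0.83 (SE 0.62). Of 13 glucocorticoid responsive genes, 5 had a higher and 8 a lower value (median -0.22), 0 passed, and 3 had every TFEB library below every control, as did 2.51% of all genes tested. The median was -0.07 without control 35 and -0.11 without TFEB 41. The 3 genes were Sgk1, a kinase, at 57.1, 66.2 and 65.9 CPM in TFEB 34, 41 and 43 against 86.2, 73.2 and 95.3 CPM in control 35, 36 and 37, the phosphatase gene Dusp1 (log2 fold change -0.52, SE 0.16) and the NF-kappa-B inhibitor gene Nfkbia (-0.38, SE 0.13). Tsc22d3, which encodes the glucocorticoid-induced leucine zipper, stood at -0.64 (SE 0.28), and it was highest in control 35 (196 CPM), as Mt1 was. Not all genes of the list were: Fkbp5 and Zbtb16 were highest in TFEB 34, at 79.1 and 140 CPM. Their log2 fold changes were 0.23 (SE 0.76) and 0.10 (SE 0.53). In a list of 12 IL-6 and acute phase genes, 6 had a higher and 6 a lower value (median -0.02) and 0 passed. The haptoglobin gene Hp stood at 1.97, 9.37 and 1.98 CPM in TFEB 34, 41 and 43 and at 39.5, 86.4 and 5.52 CPM in control 35, 36 and 37 (log2 fold change -3.30, SE 1.08). Its controls stood in the same order as the adipocyte sums given above, whose part in this was not tested. Stat3 stood at -0.12 (SE 0.12), Il6 at 0.89 (SE 0.88) and Lif at -0.32 (SE 0.33).

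**Figure D4:**
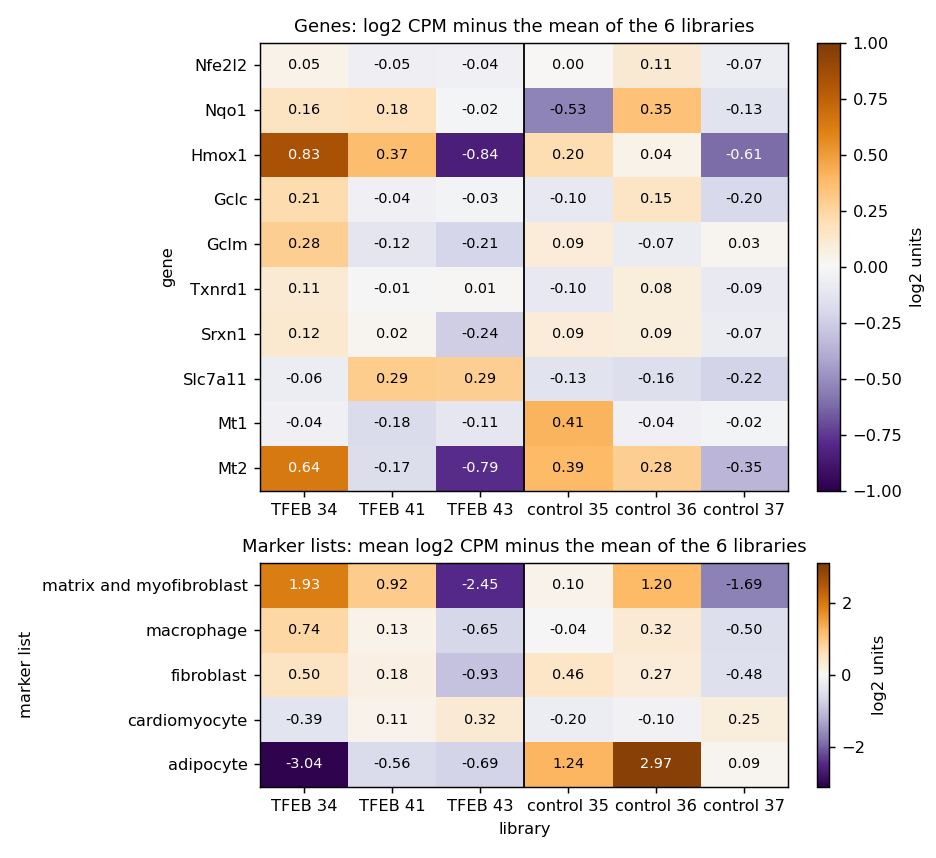
Log2 CPM of the 10 genes (top) and mean log2 CPM of 5 marker lists (bottom) in each library, relative to the mean of the 6 libraries (colour and printed value, in log2 units); the black line separates the TFEB libraries from the controls. Hmox1 and Mt2 run from 0.83 and 0.64 in TFEB 34 to -0.84 and -0.79 in TFEB 43, alongside the matrix and myofibroblast list at 1.93 and -2.45. Nfe2l2 and Txnrd1 lie at most 0.114 from 0.

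The 10 genes did not vary as 1 block. Likeness was measured as the root mean square difference between 2 genes' log2 CPM over the 6 libraries, each centred on its own mean. By this measure the closest pair of members was Nfe2l2 and Txnrd1 (0.06), followed by Gclc and Txnrd1 (0.07), and the farthest was Hmox1 and Slc7a11 (0.63). Nearly level genes score close by this measure. Nfe2l2 and Txnrd1 lay only 0.063 and 0.077 from their own means, so their closeness shows little variation and need not be a shared course. The member nearest to Mt2 was Hmox1 (0.29), not its paralogue Mt1 (0.43). In 6 of the 10 genes TFEB 34 was the highest library, and in 4 TFEB 43 was the lowest. The SD of log2 CPM over the 6 libraries also depends on the number of counts. It was 0.62 for Hmox1, 0.53 for Mt2 and 0.31 for Nqo1, and 94.3%, 91.8% and 76.9% of the genes that averaged 5 CPM or more had a smaller one.

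Among 10913 named genes of that level, those most like Hmox1 were Lsp1, a leukocyte actin-binding protein (0.08), the myosin gene Myo5a (0.08) and the calcium-binding protein gene S100a6 (0.09). Those most like Mt2 were Nlgn2 (0.09), the matrix protein gene Ccdc80 (0.09) and the elongation factor gene Eef1a1 (0.09), which itself ran from 3067 CPM in TFEB 34 to 1088 CPM in TFEB 43. Nearest to Slc7a11 were the tubulin gene Tuba1b (0.07), Nup37 (0.08) and Mrto4 (0.08), and nearest to Nqo1 were Tnfrsf22 (0.05), Timeless (0.07) and Fam111a (0.07). Phc1, Isyna1 and Ptgfrn lay closest to Mt1 (0.04, 0.04 and 0.05), and each of them was highest in control 35. Many genes follow any course over so few libraries.

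**Figure D5:**
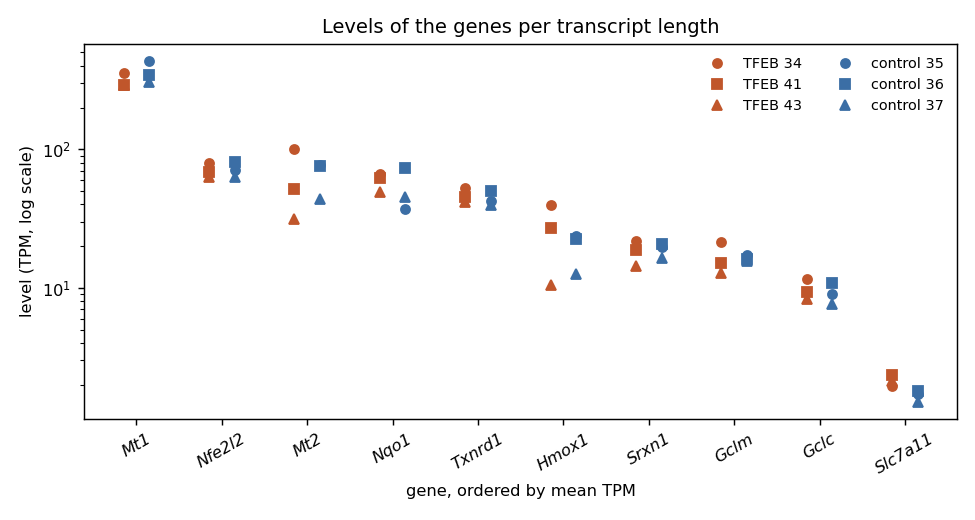
Level of each gene per transcript length in TPM (log axis) in the 6 libraries, genes ordered by mean TPM, TFEB libraries left and controls right of each centre. Mt1 lies above and Slc7a11 below all other genes in every library.

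By level per transcript length, summed over a gene's listed transcripts, Mt1 led the 10 genes at 311 ± 36.01 TPM in TFEB overexpression and 361 ± 65.0 TPM in control (SD, n = 3 each). Nfe2l2 followed at 70.8 ± 8.29 and 72.0 ± 8.90 TPM, then Mt2 at 61.1 ± 35.1 and 65.4 ± 18.8 TPM and Nqo1 at 59.0 ± 8.84 and 51.8 ± 18.7 TPM, each with TFEB overexpression before control. The ranges of Nfe2l2, Mt2, Nqo1 and Txnrd1 overlapped from neighbour to neighbour, so their order is not fixed by these libraries, although Txnrd1 lay above Hmox1 in every library. Hmox1, Srxn1 and Gclm came next, at means over the 6 libraries of 22.7, 18.6 and 16.4 TPM, with overlapping ranges between neighbours. Gclc at 9.48 TPM and Slc7a11 at 1.91 TPM lay apart from the others and from each other in every library. The modifier subunit Gclm was thus listed above the catalytic subunit Gclc in 6 of 6 libraries. Of the Gclc transcripts, NM_010295 held 64.0% to 100% of the gene's TPM; the predicted model XM_017319590 held 78.9% to 100% of that of Slc7a11.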

How the data were processed

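RNA from mouse hearts was sequenced in 6 libraries. The authors deposited 1 table of RefSeq transcripts whose columns, per the file headers, are estimated read counts, TPM and FPKM by library. The deposited estimated counts hold fractions and carry no depth scaling, the deposited TPM values are scaled for transcript length and to the same sum in each library, and the deposited FPKM values are scaled for length and depth. The submitters' processing notes name HISAT2 2.1.0, Bowtie2 2.3.4.3, RSEM 1.3.1, DESeq2 1.4.5 and the build mm10 without giving their roles. Annotation release, strand setting and filters are not stated there, so genes that share reads with a paralogue or an overlapping gene are uncertain.

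Estimated counts were summed per Entrez gene and rounded, and symbols came from the RefSeq gene table of GRCm38.p6, which is the mm10 assembly. TFEB overexpression was compared with control with edgeR 4.0.16 under R 4.3.3, by its two-sided quasi-likelihood test after filterByExpr and TMM scaling, on 13565 genes, with Benjamini-Hochberg adjustment over all of them and a call at an adjusted p under 0.05. Library depth lay between 12942480 and 14969287 estimated counts. The intervals take in counting error as well as the spread between libraries, and counting error weighs more where counts are low. They are at 95% and not adjusted for the number of genes. The test was also tried on simulated counts with the means and dispersions of these libraries. It recovered 26% of 100 genes changed 2-fold and 83% of 100 changed 4-fold, with 3 false calls. Alternatives were other scalings and filters, DESeq2 1.42.0, limma 3.58.1 on counts, TPM and FPKM, a marker list level as a covariate and leaving out each library. The named genes are the 10 members, the check genes Tfeb, Acta2 and Myh6, up to 4 genes of smallest p per pathway list and the 3 genes most alike to each member. The others named (Cul3, Bach1, Sqstm1, Slc3a2, Mtf1, Txn1, Prdx1, Fth1, Ftl1, Cybb, Cd163, Mrc1, Fkbp5, Zbtb16, Mt3 and Ucp1) were added for their role or after their values were seen. The members and the lists were chosen with earlier results of these data known.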

Additional observations from a re-analysis of the deposited data

How the results depend on the processing

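No member was called under any of the 19 alternatives, the lowest adjusted p of a member being 0.792, and 10 of 190 member values turned their direction. DESeq2 called 1 gene of all tested (no member) and every other alternative 0, a threshold of 0.1 included. With the adipocyte level as a covariate Nfe2l2 stood at 0.0056. The median log2 fold changes were then 0.012 for NRF2 control, -0.13 for superoxide and peroxide removal, -0.58 for glucocorticoid responsive and -1.77 for red blood cell genes. For adipocyte genes the median was -0.19, a value drawn towards 0 by construction, because the covariate is the mean of these same genes. The adipocyte level did not overlap between the groups, so these fits cannot separate it well from the group. The adipocyte median was -4.15 in the reported fit and -2.29 on log2(TPM + 1), with or without a filter on low values. Leaving out 1 library at a time, the number of members with a higher value ran from 4 to 8. The log2 fold change ran from -0.075 to 0.016 for Nfe2l2, from -0.021 to 0.43 for Nqo1, from -0.026 to 0.71 for Hmox1, from -0.18 to 0.080 for Gclm, from -0.14 to 0.038 for Srxn1 and from -0.60 to 0.15 for Mt2; Gclc, Txnrd1, Slc7a11 and Mt1 kept their direction under all 19. List medians ran from -0.027 to 0.038 for NRF2 control, from -0.20 to 0.019 for glutathione, from -0.19 to 0.060 for superoxide and peroxide removal, from -0.21 to 0.55 for NADPH oxidase, from -0.38 to -0.074 for glucocorticoid responsive, from -0.10 to 0.60 for macrophage, from -0.27 to 1.18 for matrix and myofibroblast, from 0.077 to 0.46 for smooth muscle and pericyte and from -4.66 to -2.21 for adipocyte genes. The medians of the other NRF2 target, thioredoxin, haem and iron, metal handling, ATF4 and IL-6 lists lay between -0.11 and 0.16 and each turned direction at least once. The cause of these shifts was not tested. No paired analysis was possible because the groups share no library number. Estimated counts of the members ran from 71 to 1564 per library, and the spread between 3 libraries a group limits what could be called.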

Other observations

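Another metallothionein gene, Mt3, known mainly from brain, was too low to be tested and was chosen here after its values were seen. It stood at 0.127, 0.586 and 0.413 CPM in TFEB 34, 41 and 43, and at 6.38, 0.211 and 0.467 CPM in control 35, 36 and 37. Control 35, the highest library for Mt3, was also the highest for Mt1. Ucp1, the uncoupling protein of brown fat, stood at 0.0636, 0 and 0 CPM in TFEB 34, 41 and 43, against 2.35 CPM in control 35 and 0 CPM in the other controls.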
